A study of Drosophila melanogaster with 62 samples.

Results

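The mRNAs of 10 regulators of the syncytial cell cycle were followed in single Drosophila melanogaster oocytes and embryos. The set was chosen by name from what its members do, with earlier results of these data known. It covers string (stg), twine (twe), Cyclin A (CycA), Cyclin B (CycB), Cyclin B3 (CycB3), Cyclin E (CycE), fizzy (fzy), fizzy-related (fzr), frühstart (frs, listed as Z600 in the genome annotation) and tribbles (trbl). All 10 were found among the 17510 gene rows of the count table. RNA-seq was performed on 62 libraries, each from 1 oocyte or 1 embryo. brat-mutant embryos came from mothers carrying the deficiency Df(2L)TE37C-7 over the fs1 allele of brain tumor (brat), with a His2Av-RFP transgene that marks nuclei. brat het embryos came from mothers labelled as carrying 1 mutant allele, Df or fs1, over CyO, and the labels do not say which allele a given library carried. HisRFP controls carried His2Av-RFP on the third chromosome with wild-type brat, so every library holds the same marker transgene. The genotype is that of the mother. The stages were the late oocyte, nuclear cycle (NC) 10, NC12, NC13, early NC14 and later NC14. brat mutant and HisRFP had 4 libraries per stage, lettered A to D, except for 3 at NC13 (A, C and D). brat het had 4 libraries at each of 4 stages and none at NC13 or early NC14.

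The early Drosophila embryo divides its nuclei in a shared cytoplasm, in rapid synchronous cycles that run on proteins and mRNAs loaded by the mother. Cdk1 bound to a mitotic cyclin drives each division, and Cdc25 phosphatases such as String and Twine switch it on by removing inhibitory phosphates. At NC14 the embryo pauses in its first G2 phase: maternal string and twine are lost, zygotic inhibitors are made, and string is later transcribed again in patterned groups of cells. Brat is an RNA-binding protein that represses the translation, and lowers the stability, of maternal mRNAs.

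All 10 are protein-coding genes of the release 6 genome (dm6). stg lies at 3R:29251826-29255800 on the minus strand and twe at 2L:16259414-16261877 on the minus strand. CycA is at 3L:11826719-11833578 on the minus strand, CycB at 2R:22803521-22806948 on the minus strand and CycB3 at 3R:24867934-24870816 on the minus strand. CycE spans 2L:15727581-15748150 on the minus strand. fzy is at 2L:16310956-16313097 on the plus strand, and fzr at X:4667290-4679537 on the minus strand. frs is at 3L:15509061-15509513 on the plus strand and trbl at 3L:20396288-20401609 on the minus strand. Reads were counted over exons without regard to strand, so reads of overlapping genes on opposite strands cannot be told apart. The exons of twe overlap EndoGI over 4.12% of their bases, those of fzy overlap cact over 3.11%, and those of CycE overlap antisense RNAs over 4.91%. frs shares 15.2% of its exonic bases with the gdl locus.

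The libraries held 4000899 to 41029921 reads assigned to genes, with a median of 13015435.5. Levels are given as CPM, the reads of a gene relative to all assigned reads of its library, with the libraries scaled by the trimmed mean of M values (TMM). A CPM value is therefore relative to the scaled mRNA pool of 1 oocyte or embryo, and is neither a plain share of its reads nor an amount. brat mRNA averaged 990.0 ± 28.7 CPM in brat-mutant embryos and 101 ± 5.65 CPM in HisRFP embryos at early NC14 (SD, n = 4 each), so the brat transcript was present in the mutant. Its level set these labelled groups apart (952 to 1022 against 94.2 to 108 CPM), but it does not show which alleles a library carried. The stage labels were set against a list of 6 blastoderm genes (nullo, bnk, Sry-alpha, slam, halo and term), of which all but Sry-alpha had enough reads. Their summed CPM was 631 to 1145 in brat mutant and 579 to 1295 in HisRFP at NC12. At early NC14 it was 3861 to 5681 in brat mutant and 3801 to 7002 in HisRFP. At NC13, brat-mutant embryos A, C and D had sums of 4494, 1408 and 1873 CPM, against 1544, 5048 and 1717 CPM in HisRFP embryos A, C and D. brat-mutant embryo A and HisRFP embryo C, both labelled NC13, thus stood at the level of early NC14 embryos, and the members' NC13 results are given with and without both. Without both, a choice made after seeing the data, the NC13 groups are only brat-mutant C and D and HisRFP A and D. At later NC14 the sum was 7073 to 11079 in brat-mutant embryos, 9171 to 15298 in brat het embryos and 10704 to 15642 in HisRFP embryos, lower in the mutant than in HisRFP but for brat-mutant embryo C. Eggshell genes of follicle cells (10 of 12 had enough reads, and all 10 had reads in each oocyte group) summed to 55.05 to 266 CPM in brat-mutant oocytes, 17593 to 59899.6 CPM in brat het oocytes and 2.87 to 30992 CPM in HisRFP oocytes.

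The first question was which members differed between maternal genotypes at a given stage. A member is counted as differing at an adjusted p under 0.05 in edgeR's quasi-likelihood test, adjusted over all genes tested. Between brat mutant and HisRFP, 4 of 10 members were higher at early NC14, where 21.6% of all genes differed, and 3 of 10 were higher at later NC14, where 23.6% differed. At NC12, 1 member was higher and 1 lower (11.4% of all genes), and in oocytes 1 of 9 tested was lower (1.49%). None of 9 passed at NC10 (5.77%), where fzr alone had an unadjusted p under 0.05, and none of 10 passed at NC13 (4.36%), where stg alone had an unadjusted p under 0.05. The member that was lower in the mutant, in oocytes and at NC12, was fzr. The higher members at NC14 were stg, CycA and CycB at both times, and CycE at the early one. frs was not tested in oocytes, nor between brat mutant and HisRFP at NC10, since it had under 50 reads over the libraries compared.

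Between brat het and HisRFP, all calls were of lower levels: fzr in oocytes (1 of 9; 3.13% of all genes), fzr at NC10 (1 of 10; 7.13%), fzr and trbl at NC12 (2 of 10; 9.74%) and none at later NC14 (0 of 10; 5.81%), where fzy, frs and trbl had an unadjusted p under 0.05. Between brat mutant and brat het, stg was the one member higher at NC12 (1 of 10; 4.28%) and at later NC14 (1 of 10; 2.44%). No member passed in oocytes (0 of 9; 13.0%) or at NC10 (0 of 10; 0.248%) in that comparison, and none of them had an unadjusted p under 0.05 there. The comparisons with HisRFP share the HisRFP libraries, and those with brat mutant share the mutant libraries, so their calls are not independent of each other.

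**Figure D1:**
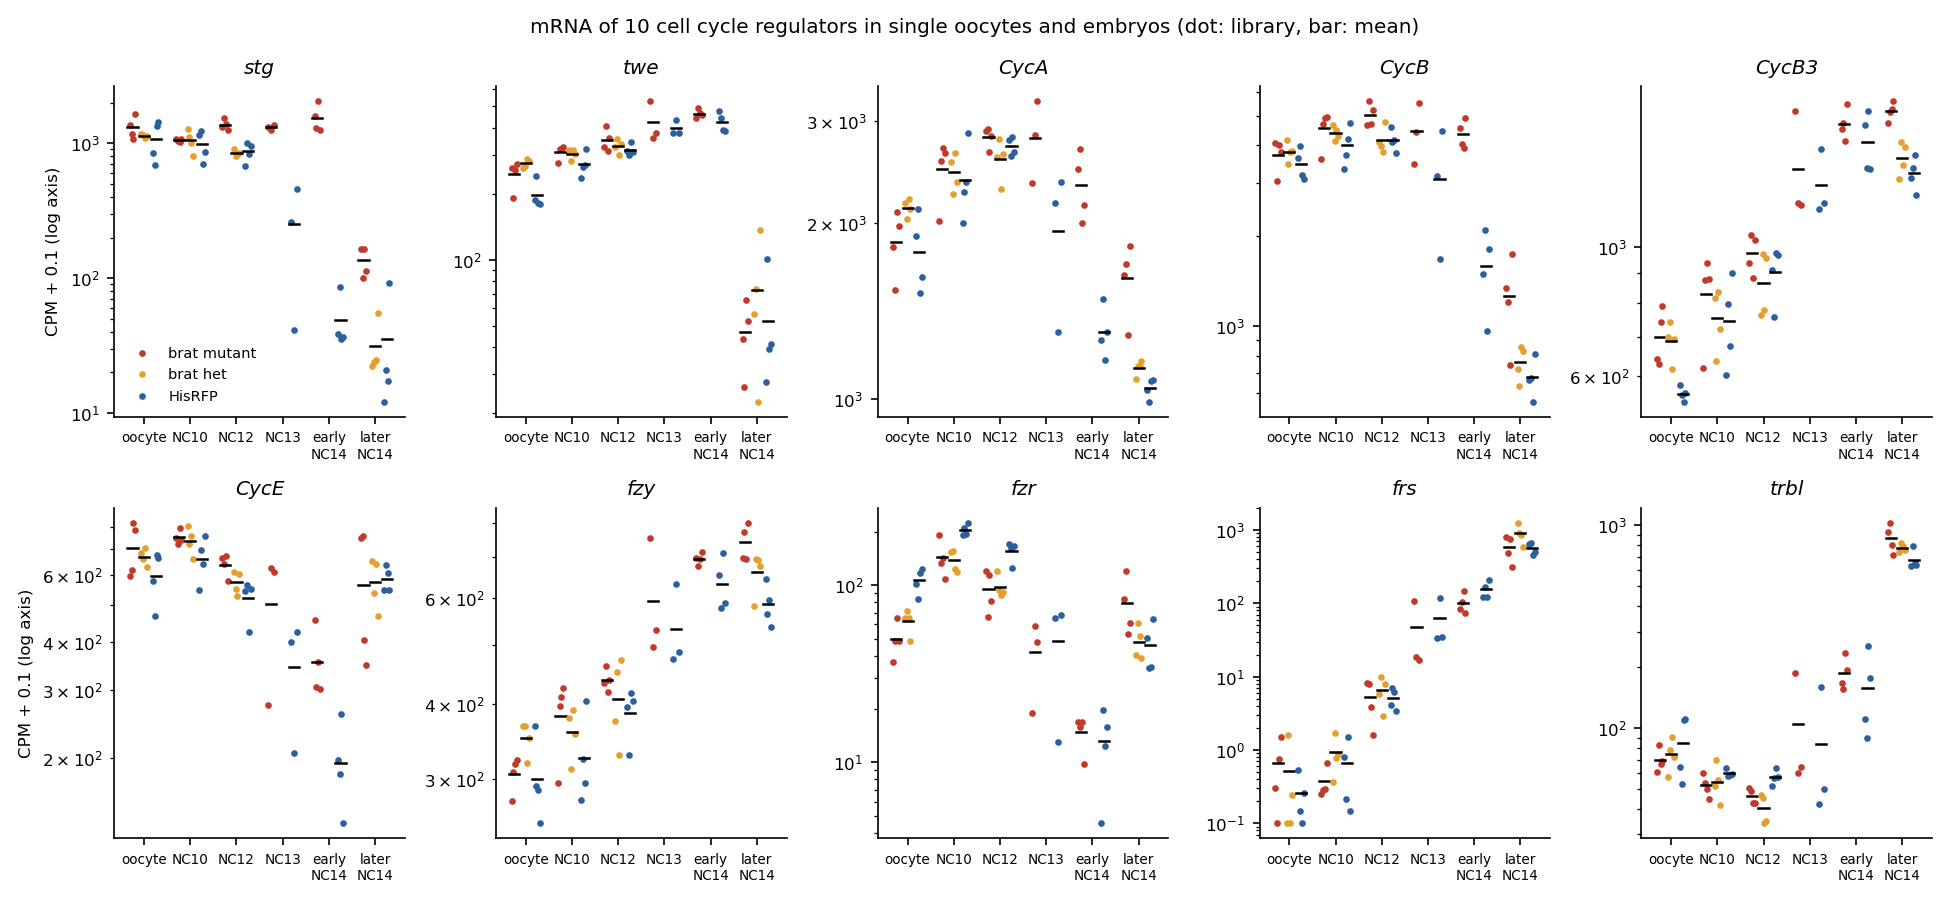
CPM of each member (log axis, after adding 0.1) by stage, 1 dot per library and a bar at the group mean, with brat mutant, brat het and HisRFP side by side within a stage. For stg, the 4 brat-mutant dots at early NC14 lie at 1260.1 to 2057 CPM, above the 4 HisRFP dots at 35.1 to 85.7 CPM.

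The Cdc25 phosphatase gene stg showed the largest difference of the 10. At early NC14 its mRNA was 1587, 1307, 2057 and 1260.1 CPM in brat-mutant embryos A to D, against 38.4, 85.7, 35.1 and 36.2 CPM in HisRFP embryos A to D. The 4 mutant values all lay more than 10-fold above the highest control value, embryo B. stg was 31.4-fold higher in the mutant (log2 fold change 4.97 ± 0.35 SE, edgeR adjusted p = 1.11e-05). A library is a whole embryo, so fewer nuclei with the mRNA and less mRNA per nucleus cannot be told apart.

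The difference in stg was present before NC14. In oocytes, stg was 1360.4, 1172, 1075 and 1635 CPM in brat mutant, 1175, 1159.7, 1087 and 1134 CPM in brat het and 842, 691, 1347 and 1439 CPM in HisRFP. At NC10 it was 1068, 1035, 1025 and 1076 CPM in brat mutant, 1266, 1119.9, 1003 and 804 CPM in brat het and 1158, 1225, 705 and 857 CPM in HisRFP. The genotypes overlapped at both stages. At NC12 it was 1318, 1552, 1379.6 and 1261 CPM in brat mutant, 905, 802, 828 and 847 CPM in brat het and 683, 1006, 835 and 954 CPM in HisRFP. All 4 mutant embryos at NC12 lay above all 4 brat het and all 4 HisRFP embryos, and stg was 1.61-fold higher than in HisRFP (log2 fold change 0.68 ± 0.14 SE, edgeR adjusted p = 0.0131) and 1.601-fold higher than in brat het (log2 fold change 0.68 ± 0.09 SE, edgeR adjusted p = 0.00491).

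At NC13, stg was 1319.9, 1255 and 1373 CPM in brat-mutant embryos A, C and D, against 262, 40.9 and 457 CPM in HisRFP embryos A, C and D. The groups did not overlap, but the controls ranged over more than 10-fold, the lowest being embryo C with its high blastoderm gene sum. The difference did not pass with all libraries (log2 fold change 2.36 ± 0.76 SE, edgeR adjusted p = 0.162). Without brat-mutant A and HisRFP C, which leaves mutant C and D against HisRFP A and D, it did (log2 fold change 1.902 ± 0.25 SE, edgeR adjusted p = 0.00576). It also passed without HisRFP C alone (log2 fold change 1.85, edgeR adjusted p = 0.0249). In the mutant, the embryo with the advanced blastoderm genes, A, had a stg level between those of C and D.

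At later NC14, stg had dropped to 164, 100.4, 165 and 113 CPM in brat-mutant embryos, against 22.3, 23.6, 24.5 and 55.4 CPM in brat het and 11.99, 20.8, 17.1 and 92.02 CPM in HisRFP embryos. The lowest mutant embryo was above the highest of either control, HisRFP embryo D, which was itself more than 4-fold above the other HisRFP embryos. stg was 3.73-fold higher than in HisRFP (log2 fold change 1.9 ± 0.59 SE, edgeR adjusted p = 0.0415) and 4.29-fold higher than in brat het (log2 fold change 2.101 ± 0.32 SE, edgeR adjusted p = 0.00769). The call against HisRFP was lost when any one of brat-mutant A, B or C or HisRFP A, B or C was left out (log2 fold change 1.63 to 2.03, edgeR adjusted p = 0.0608 to 0.0918), and without HisRFP D the log2 fold change was 3.01 (edgeR adjusted p = 2.98e-04). The lower blastoderm gene sum of the mutant at this time moves with the result, and its part in it was not tested.

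**Figure D2:**
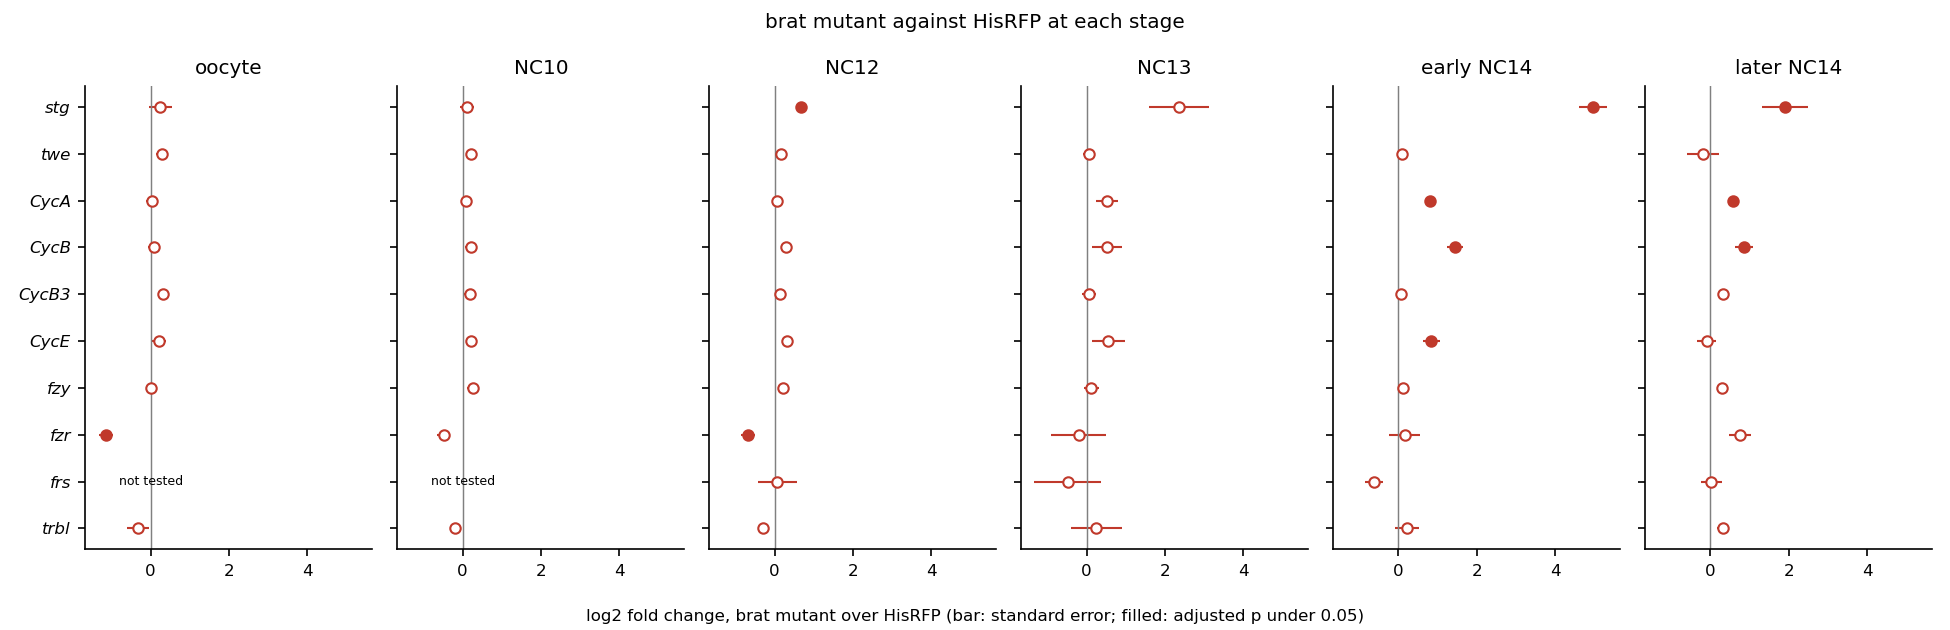
log2 fold change of each member, brat mutant over HisRFP, at each of the 6 stages, with bars of 1 SE and filled symbols where the edgeR adjusted p was under 0.05. stg reaches 4.97 at early NC14, CycA and CycB lie above 0 at both NC14 times, and fzr lies below 0 in oocytes and at NC12.

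The next question was how each mRNA changed with stage and whether that change differed in the mutant. In brat mutant, stg at early NC14 did not pass against NC12 (log2 fold change 0.11 ± 0.16 SE, edgeR adjusted p = 0.5505). In HisRFP it was 17.2-fold lower at early NC14 than at NC12 (log2 fold change -4.103 ± 0.32 SE, edgeR adjusted p = 7.43e-05), and the difference between the steps passed (log2 difference 4.19 ± 0.36 SE, edgeR adjusted p = 1.96e-06). These steps skip NC13 and were added once the NC13 libraries had been seen. By later NC14, stg in brat mutant was 9.85-fold below its early NC14 level (log2 fold change -3.3 ± 0.23 SE, edgeR adjusted p = 2.75e-06). The HisRFP values were low at both times and did not pass (log2 fold change -0.33 ± 0.62 SE, edgeR adjusted p = 0.685), but without HisRFP embryo D of later NC14 the step was -1.39 on the log2 scale (edgeR adjusted p = 0.0232). The step from early to later NC14 was steeper in the mutant than in HisRFP (log2 difference -2.95 ± 0.72 SE, edgeR adjusted p = 0.0154). Both step differences use the same early NC14 libraries, so they are not independent of each other.

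twe, the Cdc25 gene best known for its role in meiosis, passed in no comparison between genotypes. At early NC14 it was 441, 491, 468 and 456 CPM in brat mutant, against 475, 442, 391 and 385 CPM in HisRFP. At later NC14 it was 43.4, 26.2, 65.1 and 52.5 CPM in brat mutant, 56.4, 73.3, 22.4 and 137 CPM in brat het and 27.7, 101, 38.95 and 41.3 CPM in HisRFP. The genotypes overlapped at both times. The log2 fold changes of brat mutant over HisRFP lay between -0.19 and 0.298. Its loss fell between early and later NC14, when it was 8.46-fold lower at the later time in brat mutant (log2 fold change -3.08 ± 0.26 SE, edgeR adjusted p = 7.48e-06) and 7.31-fold lower in HisRFP (log2 fold change -2.87 ± 0.38 SE, edgeR adjusted p = 5.13e-04). The difference between these steps did not pass (log2 difference -0.202 ± 0.46 SE, edgeR adjusted p = 0.807).

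The mitotic cyclins CycA and CycB, the partners of Cdk1, were both more abundant in brat-mutant embryos at NC14. CycB at early NC14 was 4549, 4036, 3924 and 4936 CPM in brat mutant, against 1497, 2096, 963 and 1807 CPM in HisRFP. CycA at early NC14 was 2482, 2677, 2004 and 2146 CPM in brat mutant, against 1260.0, 1485, 1164 and 1299 CPM in HisRFP. For both genes the lowest mutant embryo was above the highest control. CycB was 2.71-fold higher in the mutant (log2 fold change 1.44 ± 0.21 SE, edgeR adjusted p = 0.00109) and CycA 1.75-fold higher (log2 fold change 0.81 ± 0.12 SE, edgeR adjusted p = 0.001002). These calls and that of stg were kept in all 13 alternatives.

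At later NC14, CycA was 1632, 1700.1, 1289 and 1831 CPM in brat mutant, 1079.8, 1137, 1136 and 1162 CPM in brat het and 1033, 988, 1074 and 1076 CPM in HisRFP. Every mutant embryo lay above every embryo of both other genotypes, and CycA was 1.503-fold higher than in HisRFP (log2 fold change 0.59 ± 0.13 SE, edgeR adjusted p = 0.00934). Against brat het the same difference did not pass (log2 fold change 0.497 ± 0.14 SE, edgeR adjusted p = 0.0943). CycB was 1343, 1206, 746 and 1742 CPM in brat mutant, 719.6, 635, 852 and 829.7 CPM in brat het and 663, 674, 562 and 809 CPM in HisRFP. Mutant embryo C, the one with the highest blastoderm gene sum in its group, lay inside the range of HisRFP, and the other mutant embryos lay above it. CycB was 1.81-fold higher in the mutant than in HisRFP (log2 fold change 0.85 ± 0.23 SE, edgeR adjusted p = 0.0261). The call was lost without brat-mutant A or B or HisRFP A, B or C (log2 fold change 0.83 to 0.901, edgeR adjusted p = 0.0507 to 0.0615), and against brat het it did not pass (log2 fold change 0.71 ± 0.24 SE, edgeR adjusted p = 0.151).

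Before NC13 no difference between genotypes passed for CycA or CycB in edgeR. CycA ranged over 1539 to 2904 CPM in brat mutant, 2030.2 to 2786 CPM in brat het and 1521 to 2857 CPM in HisRFP from oocyte to NC12. CycB ranged over 3036 to 5608 CPM in brat mutant, 3459.7 to 4775 CPM in brat het and 3089 to 4748 CPM in HisRFP. At NC12 all 4 brat-mutant embryos (4659 to 5608 CPM) had more CycB than all 4 HisRFP embryos (3778 to 4602 CPM), a difference that did not pass in edgeR (log2 fold change 0.305 ± 0.12 SE, edgeR adjusted p = 0.156) but did in DESeq2 (adjusted p = 0.0117). At NC13 the CycB values were 3474, 4427 and 5525 CPM in brat-mutant A, C and D, against 3167, 1679 and 4453 CPM in HisRFP A, C and D, with the lowest value of each group in the embryo with the high blastoderm gene sum. Without those embryos, CycA was higher in mutant C and D than in HisRFP A and D (log2 fold change 0.46 ± 0.09 SE, edgeR adjusted p = 0.02303) and CycB did not pass (log2 fold change 0.42, edgeR adjusted p = 0.161). With all libraries neither passed (log2 fold change 0.52 for CycA, edgeR adjusted p = 0.382, and 0.52 for CycB, edgeR adjusted p = 0.554). Leaving out both embryos removed the lowest CycA value of each group, so that fit cannot decide whether CycA differed at NC13.

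From NC12 to early NC14 both cyclin mRNAs were lower at the later stage in each genotype, and by less in the mutant. CycB fell by 0.28 on the log2 scale in brat mutant (edgeR adjusted p = 0.0448) and by 1.33 in HisRFP (edgeR adjusted p = 5.85e-04), and the difference between the steps passed (log2 difference 1.04 ± 0.23 SE, edgeR adjusted p = 0.0142). The brat-mutant call was lost in 7 of 13 alternatives (edgeR adjusted p up to 0.179). CycA fell by 0.34 in brat mutant (edgeR adjusted p = 0.00882) and by 0.996 in HisRFP (edgeR adjusted p = 1.38e-04), and this difference passed too (log2 difference 0.64 ± 0.13 SE, edgeR adjusted p = 0.00673). In the mutant the early NC14 values of both genes still overlapped the NC12 values, which those of HisRFP did not. From early to later NC14, CycB fell in both genotypes, by 1.57 in brat mutant (edgeR adjusted p = 3.54e-04) and by 1.08 in HisRFP (edgeR adjusted p = 0.00316), while the CycA step passed in neither (log2 fold change -0.304 in brat mutant, edgeR adjusted p = 0.106, and -0.17 in HisRFP, edgeR adjusted p = 0.198).

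CycB3, the B-type cyclin that acts with CycA and CycB in mitosis, took the opposite course. At early NC14 it was 1591, 1629, 1521 and 1754 CPM in brat mutant, against 1617, 1365, 1711 and 1358 CPM in HisRFP. At later NC14 it was 1632, 1705, 1720.2 and 1778 CPM in brat mutant, 1306, 1515, 1382 and 1482 CPM in brat het and 1312, 1366, 1436 and 1227 CPM in HisRFP. The groups overlapped at the early time, and at the later one every mutant embryo lay above every embryo of the other genotypes, by a small margin that did not pass (log2 fold change 0.32 ± 0.104 SE, edgeR adjusted p = 0.0527). The mRNA rose with stage instead of falling: early NC14 stood above NC12 by 0.67 on the log2 scale in brat mutant (edgeR adjusted p = 1.42e-04) and by 0.81 in HisRFP (edgeR adjusted p = 0.00111). These values are relative to the scaled mRNA pool, and amounts per embryo were not measured.

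CycE, which partners Cdk2 and promotes S phase, was the other cyclin to differ at early NC14. It was 457, 306, 356 and 302 CPM in brat mutant, against 198, 182, 261 and 135 CPM in HisRFP, without overlap and 1.79-fold higher in the mutant (log2 fold change 0.84 ± 0.22 SE, edgeR adjusted p = 0.0249). The call was lost without brat-mutant A or C or HisRFP A (log2 fold change 0.69 to 0.86, edgeR adjusted p = 0.0513 to 0.07595). At later NC14 it was 747, 758, 406 and 348 CPM in brat mutant, 653, 539, 638 and 469.5 CPM in brat het and 548, 634, 606 and 546 CPM in HisRFP. The mutant embryos split into a higher and a lower pair on either side of the HisRFP embryos, and the difference did not pass (log2 fold change -0.09 ± 0.24 SE, edgeR adjusted p = 0.801).

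At NC12, CycE was 662, 639, 669 and 579 CPM in brat mutant, 608, 551, 529 and 602 CPM in brat het and 544, 564, 424 and 549 CPM in HisRFP. All mutant embryos lay above all HisRFP embryos, and the difference did not pass in edgeR (log2 fold change 0.32 ± 0.098 SE, edgeR adjusted p = 0.07395) but did in DESeq2 (adjusted p = 0.0145). CycE had its lowest mean at early NC14 in both genotypes. From NC12 it fell by 0.91 on the log2 scale in brat mutant (edgeR adjusted p = 2.60e-04) and by 1.35 in HisRFP (edgeR adjusted p = 7.30e-04), and by later NC14 it had risen by 0.88 in brat mutant (edgeR adjusted p = 0.0146) and by 1.73 in HisRFP (edgeR adjusted p = 3.19e-04). The differences between genotypes in these steps did not pass (log2 0.42 for the first, edgeR adjusted p = 0.3496, and -0.84 for the second, edgeR adjusted p = 0.115). At NC13, CycE was 274, 626 and 609.8 CPM in brat-mutant A, C and D, against 401, 206 and 425 CPM in HisRFP A, C and D. Again the lowest of each group was the embryo with the high blastoderm gene sum. Without those embryos CycE was higher in mutant C and D than in HisRFP A and D (log2 fold change 0.62 ± 0.08 SE, edgeR adjusted p = 0.00592). With all libraries it did not pass (log2 fold change 0.55, edgeR adjusted p = 0.567). Leaving out both embryos removed the lowest CycE value of each group, so that fit cannot decide whether CycE differed at NC13.

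The activators of the anaphase-promoting complex (APC/C), the ubiquitin ligase that marks mitotic cyclins for destruction, had unlike patterns. fzr, the Cdh1 gene that holds the complex active in G1, was the member with lower levels in both brat genotypes early on. In oocytes it was 36.8, 48.2, 65.1 and 48.4 CPM in brat mutant, 65.3, 71.1, 65.4 and 48.4 CPM in brat het and 102, 83, 117 and 124 CPM in HisRFP. The 4 oocytes of each brat genotype lay below all 4 of HisRFP. fzr was lower than in HisRFP in brat mutant (log2 fold change -1.13 ± 0.18 SE, edgeR adjusted p = 0.0177) and in brat het (log2 fold change -0.89 ± 0.18 SE, edgeR adjusted p = 0.0435). The brat-mutant call was lost without brat-mutant A, B or D or HisRFP C (edgeR adjusted p = 0.05105 to 0.0849) and the brat het call in 8 of 13 alternatives (edgeR adjusted p = 0.06102 to 0.172). Eggshell RNA also differed between these oocytes, high in brat het and low in brat mutant, and its part in the fzr values was not tested.

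In embryos at NC10, fzr was 193, 134, 143 and 108 CPM in brat mutant, 154, 156, 124 and 119 CPM in brat het and 191, 209, 195 and 226 CPM in HisRFP. brat het lay wholly below HisRFP (log2 fold change -0.599 ± 0.099 SE, edgeR adjusted p = 0.00411), while brat-mutant embryo A reached the lowest HisRFP embryos and the mutant did not pass (log2 fold change -0.49 ± 0.16 SE, edgeR adjusted p = 0.129). Without that embryo it did (log2 fold change -0.66, edgeR adjusted p = 0.00286). At NC12 it was 120.2, 66.2, 114 and 81.4 CPM in brat mutant, 119, 93.4, 87.97 and 91.4 CPM in brat het and 170.4, 162, 125 and 165 CPM in HisRFP. Neither brat genotype overlapped HisRFP, and fzr was lower in brat mutant (log2 fold change -0.68 ± 0.18 SE, edgeR adjusted p = 0.0418), a call lost in 7 of 13 alternatives (edgeR adjusted p = 0.0518 to 0.137), and in brat het (log2 fold change -0.62 ± 0.11 SE, edgeR adjusted p = 0.00798), a call kept in all 13 as at NC10. brat mutant and brat het overlapped in oocytes and at both embryonic stages, with no passing difference in fzr (edgeR adjusted p = 0.255, 0.9997 and 0.923).

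At early NC14 fzr was scarce in both genotypes. It was 16.8, 15.7, 16.9 and 9.62 CPM in brat mutant, against 4.42, 19.6, 12.3 and 15.8 CPM in HisRFP. Later NC14 values were 83.01, 121, 53.2 and 61.2 CPM in brat mutant, 40.04, 61.5, 51.2 and 38.7 CPM in brat het and 50.2, 33.9, 34.4 and 64.4 CPM in HisRFP. The early drop from NC12 was -2.77 on the log2 scale in brat mutant (edgeR adjusted p = 3.24e-05) and -3.52 in HisRFP (edgeR adjusted p = 2.41e-04). By later NC14 fzr had risen again in brat mutant (log2 fold change 2.65 ± 0.29 SE, edgeR adjusted p = 3.58e-05) and in HisRFP (log2 fold change 1.96 ± 0.41 SE, edgeR adjusted p = 0.00424). The later level overlapped between genotypes and its difference did not pass (log2 fold change 0.75 ± 0.29 SE, edgeR adjusted p = 0.0874).

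fzy, the Cdc20 gene that activates the APC/C at the exit from each mitosis, passed in no comparison between genotypes. At early NC14 it was 699, 679, 697 and 715 CPM in brat mutant, against 655, 577, 712 and 589 CPM in HisRFP. At later NC14 it was 699.8, 772, 695 and 800.0 CPM in brat mutant, 581, 695, 694 and 678 CPM in brat het and 643, 563, 595 and 537 CPM in HisRFP. The mutant embryos clustered at the upper end of the HisRFP range at the early time, and at the later time all lay above the HisRFP embryos without passing (log2 fold change 0.303 ± 0.11 SE, edgeR adjusted p = 0.0704). Its rise from NC12 to early NC14, 0.61 in brat mutant (edgeR adjusted p = 6.94e-05) and 0.79 in HisRFP (edgeR adjusted p = 9.37e-04) on the log2 scale, was close to that of CycB3.

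frs and trbl are made by the zygote and hold back mitosis, frs by binding mitotic cyclins and trbl by promoting the loss of String and Twine. frs was at or near 0 in oocytes and at NC10, with no library above 1.63 CPM. At NC12 it was 7.99, 7.75, 3.71 and 1.51 CPM in brat mutant and 3.95, 6.99, 6.04 and 3.25 CPM in HisRFP. At NC13 it was 107, 18.2 and 16.7 CPM in brat-mutant A, C and D, against 33.2, 119 and 34.6 CPM in HisRFP A, C and D. The high value of each NC13 group belonged to the embryo with the high blastoderm gene sum. Without those embryos frs was lower in mutant C and D than in HisRFP A and D (log2 fold change -0.92 ± 0.15 SE, edgeR adjusted p = 0.0115). With all libraries it did not pass (log2 fold change -0.48, edgeR adjusted p = 0.824), and leaving out each library in turn gave -1.81 to 0.391. Leaving out both embryos removed the highest frs value of each group, so that fit cannot decide whether frs differed.

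At early NC14 frs was 83.9, 104, 146 and 74.5 CPM in brat mutant, against 121, 169, 121 and 209 CPM in HisRFP. At later NC14 it was 812, 488, 746 and 311 CPM in brat mutant, 1263, 911, 859 and 594 CPM in brat het and 637, 658, 451 and 507 CPM in HisRFP. The mutant and HisRFP embryos overlapped at both times, and the differences did not pass (log2 fold change -0.62 early, edgeR adjusted p = 0.0907, and 0.02 later, edgeR adjusted p = 0.964). At later NC14 brat het did not pass against HisRFP either (log2 fold change 0.73 ± 0.21 SE, edgeR adjusted p = 0.07601), although it did in DESeq2 (adjusted p = 0.0297), with the replicate block (edgeR adjusted p = 0.0316) and without brat het D (edgeR adjusted p = 0.0248). The rise between the times passed in brat mutant (log2 fold change 2.74 ± 0.32 SE, edgeR adjusted p = 5.76e-05) and in HisRFP (log2 fold change 2.02 ± 0.201 SE, edgeR adjusted p = 1.82e-04), and the difference between them did not (log2 difference 0.75 ± 0.39 SE, edgeR adjusted p = 0.209).

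trbl was present in oocytes, at 60.9 to 82.2 CPM in brat-mutant oocytes, 57.5 to 90.9 CPM in brat het oocytes and 52.9 to 111 CPM in HisRFP oocytes. At NC12 it was 50.4, 49.03, 42.6 and 42.7 CPM in brat mutant, 46.8, 45.1, 33.9 and 34.9 CPM in brat het and 51.9, 56.5, 63.6 and 57.5 CPM in HisRFP. brat het lay below HisRFP without overlap (log2 fold change -0.48 ± 0.12 SE, edgeR adjusted p = 0.0395), a call lost in 8 of 13 alternatives (edgeR adjusted p = 0.0572 to 0.125). brat mutant also lay below HisRFP without overlap, by a smaller margin that did not pass (log2 fold change -0.29 ± 0.11 SE, edgeR adjusted p = 0.141). At early NC14 trbl was 168, 155, 235 and 193 CPM in brat mutant, against 111, 89.2, 255 and 177 CPM in HisRFP. Later NC14 values were 925, 1033, 801 and 716 CPM in brat mutant, 740.2, 821, 787 and 759 CPM in brat het and 634, 791, 651 and 639 CPM in HisRFP. The genotypes overlapped and none of these differences passed (edgeR adjusted p = 0.647 early and 0.132 later for brat mutant against HisRFP). The rise from early to later NC14 was 5.38-fold in brat mutant (log2 fold change 2.43 ± 0.17 SE, edgeR adjusted p = 2.75e-06) and 4.77-fold in HisRFP (log2 fold change 2.25 ± 0.31 SE, edgeR adjusted p = 5.56e-04).

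**Figure D3:**
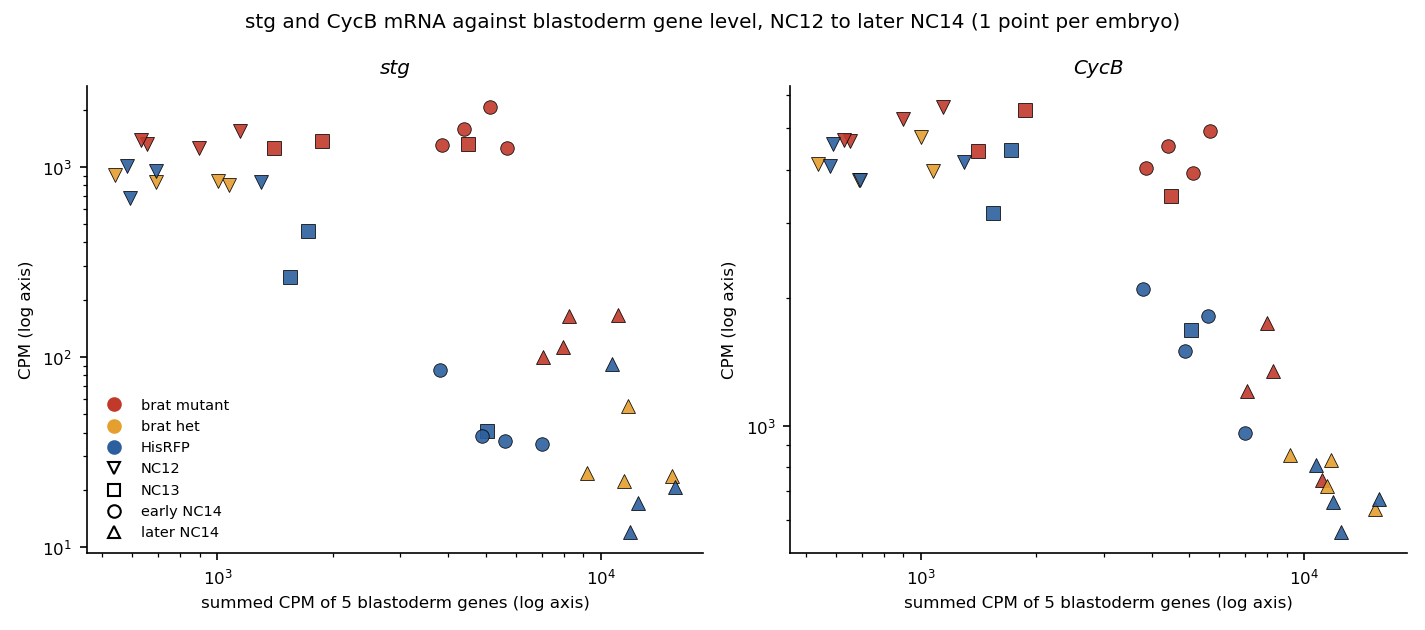
CPM of stg and CycB (log axis) against the summed CPM of 5 blastoderm genes (log axis) in the embryos from NC12 to later NC14, 1 symbol per embryo, coloured by genotype and shaped by stage. brat-mutant NC13 A and HisRFP NC13 C lie among the early NC14 embryos on the horizontal axis, and stg in HisRFP C (40.9 CPM) lies with the early NC14 controls while stg in brat-mutant A (1319.9 CPM) lies with the other mutant NC13 embryos.

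The other members at NC13 overlapped between genotypes. In embryos A, C and D, twe was 529, 361 and 379.6 CPM in brat mutant, against 379, 436 and 378 CPM in HisRFP. CycB3 was 1709, 1187 and 1179 CPM in brat mutant, against 1159, 1474 and 1189.5 CPM in HisRFP, and fzy 754, 497 and 529.6 CPM in brat mutant, against 474, 634 and 487 CPM in HisRFP. For these 3 genes, brat-mutant A and HisRFP C were the highest of their groups. fzr was 18.8, 58.7 and 47.97 CPM in brat mutant, against 65.1, 12.9 and 67.7 CPM in HisRFP, and trbl 188, 60.4 and 64.5 CPM in brat mutant, against 42.3, 160.1 and 49.9 CPM in HisRFP. The same embryos were the lowest for fzr and the highest for trbl. None of the 5 passed with all libraries (edgeR adjusted p = 0.7798 to 0.918) or without both embryos, where the adjusted p was lowest for trbl (log2 fold change 0.47 ± 0.14 SE, edgeR adjusted p = 0.06202).

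Step by step in HisRFP, few members moved before NC13. From oocyte to NC10, fzr rose and was the one call among 9 tested (0.85 on the log2 scale, edgeR adjusted p = 0.00545). Of all genes, 27.5% differed. From NC10 to NC12, 1 of 10 rose (frs, 3.17, edgeR adjusted p = 0.011) and 1 fell (fzr, -0.34, edgeR adjusted p = 0.0267), with 33.7% of all genes called. The fzr call was lost in 5 of 13 alternatives (edgeR adjusted p up to 0.0846). From NC12 to NC13, twe, CycB3, fzy and frs rose and fzr fell, 5 of 10 where 45.9% of all genes differed. Same-letter libraries of NC12 and NC13 deviated together, but they are different embryos and the labels do not say that letters pair them. Embryo C had the highest blastoderm gene sum of both groups (1295 CPM at NC12 and 5048 CPM at NC13). With the letters as a block, 3 of 10 passed: frs (3.56, edgeR adjusted p = 0.0109), fzr (-1.98, edgeR adjusted p = 0.0342) and CycE (-0.64, edgeR adjusted p = 0.04198). In that fit twe, CycB3 and fzy did not (edgeR adjusted p = 0.0816, 0.0619 and 0.0794). No member passed when any one of NC12 A, B or D or NC13 A was left out. Without NC13 C, 3 of 10 passed, namely stg (-1.28, edgeR adjusted p = 0.0186), fzr (-1.23, edgeR adjusted p = 0.0136) and frs (2.75, edgeR adjusted p = 0.0136). The shares of all genes called with the block or without NC13 C are not given here, so these counts cannot be set against them.

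From NC13 to early NC14 no member passed in HisRFP (0 of 10; 0.00% of all genes in edgeR), although 6 members and 1800 of all 7676 genes had an unadjusted p under 0.05. DESeq2 called 2 of 10. Without HisRFP NC13 C, 6 of 10 passed: stg, CycA, CycB, CycE and fzr were lower at early NC14 (-2.92, -0.83, -1.3, -1.12 and -2.38 on the log2 scale, edgeR adjusted p = 0.0265, 0.0282, 0.0487, 0.0495 and 0.0434) and frs was higher (2.16, edgeR adjusted p = 0.0238). The shares of all genes called in DESeq2 and without HisRFP NC13 C are not given here, so these counts cannot be set against them. From early to later NC14, CycE, fzr, frs and trbl rose and twe and CycB fell, 6 of 10 where 47.3% of all genes differed. In brat mutant the same step moved 9 of 10, those 6 together with stg, CycB3 and fzy, with 63.2% of all genes called. The calls of CycB3 and fzy were lost in 9 and 8 of 13 alternatives (edgeR adjusted p up to 0.195 and 0.162), library totals among them. In the step that skips NC13, from NC12 to early NC14, all but stg moved in brat mutant (70.9% of all genes), and all 10 moved in HisRFP (71.6% of all genes), 5 up and 5 down.

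The scaling mattered for the small steps between NC12 and early NC14. The median log2 fold change of all genes there was 0.08 in brat mutant and 0.16 in HisRFP, and -0.13 in brat mutant and -0.11 in HisRFP when CPM were scaled by the totals alone. The rise of twe passed in brat mutant (log2 fold change 0.34 ± 0.09 SE, edgeR adjusted p = 0.00655) and HisRFP (log2 fold change 0.48 ± 0.11 SE, edgeR adjusted p = 0.00354), but not with library totals (log2 fold change 0.14 in brat mutant, edgeR adjusted p = 0.205, and 0.205 in HisRFP, edgeR adjusted p = 0.0612). The 9 other calls in HisRFP and the 8 other calls in brat mutant kept their direction and passed with library totals.

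Tested as differences between genotypes, few steps passed between brat mutant and HisRFP. In simulated counts the test of the step from early to later NC14 recovered 20% of log2 changes of 1 and 76% of those of 2. A step that did not pass may therefore still differ. stg was the one member of 10 whose step from early to later NC14 differed, where 12.7% of all genes did. stg, CycA and CycB, 3 of 10, differed in the step from NC12 to early NC14, against 6.19% of all genes. No member differed in the steps from oocyte to NC10 (0.130% of all genes), NC10 to NC12 (0.0278%), NC12 to NC13 (0.0262%) or NC13 to early NC14 (0.00%), although stg had an unadjusted p under 0.05 in each of the last 3 and 527 of all 8452 genes had one in the last. Without both NC13 embryos, the stg step from NC13 to early NC14 differed (log2 3.12 ± 0.54 SE, edgeR adjusted p = 0.04498), against 2.69 with them (edgeR adjusted p = 0.733). The stg step from NC12 to NC13 did not differ past the threshold with or without both (log2 1.19 without them, edgeR adjusted p = 0.146, and 1.696 with them, edgeR adjusted p = 0.6696), and no other member passed in that step either way.

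**Figure D4:**
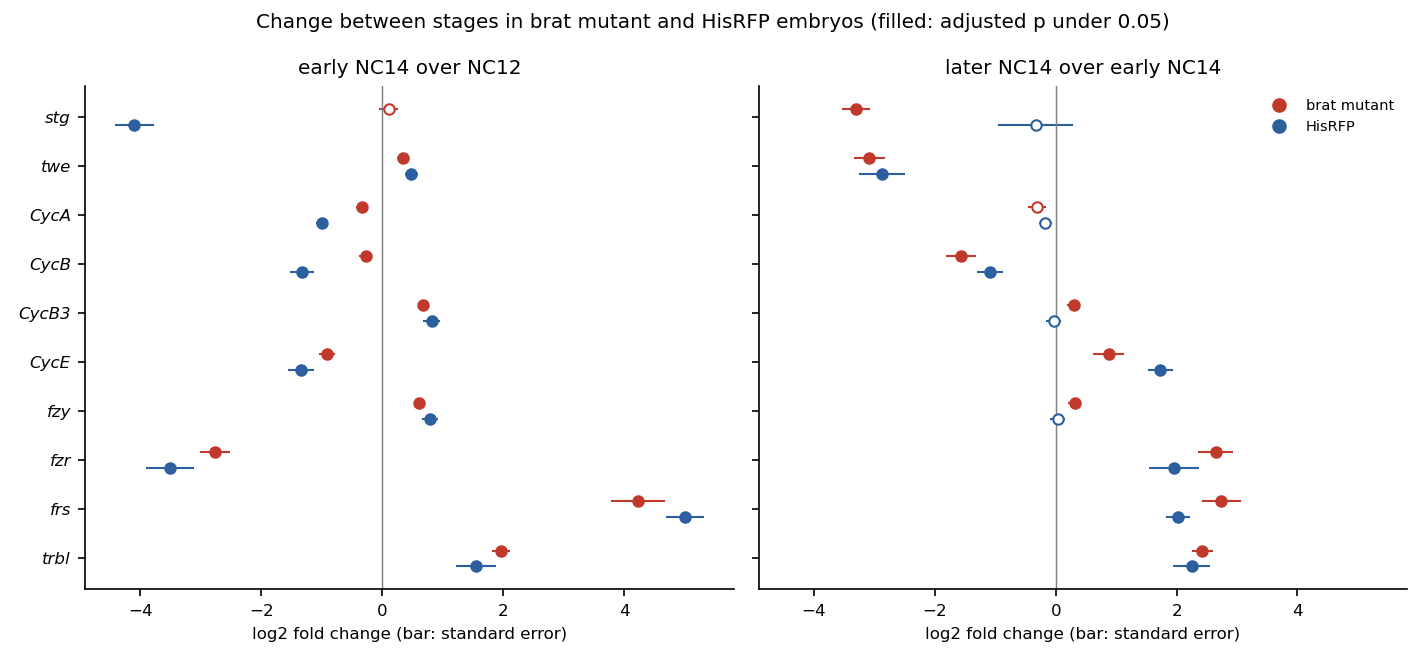
log2 fold change of each member from NC12 to early NC14 and from early to later NC14, in brat mutant and HisRFP, with bars of 1 SE and filled dots at an edgeR adjusted p under 0.05. stg sits at 0.11 in brat mutant and -4.103 in HisRFP for the first step, and at -3.3 in brat mutant and -0.33 in HisRFP for the second.

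Levels of different genes were compared as CPM per kilobase of merged exons. In HisRFP at NC12 the order was CycB (1366 ± 112, mean ± SD, n = 4), CycA (929 ± 34.5), CycB3 (313 ± 34.8), stg (284 ± 46.8), fzy (193 ± 19.5), twe (133 ± 8.24), CycE (103 ± 12.8), fzr (55.8 ± 7.41), trbl (24.2 ± 2.04) and frs (11.2 ± 3.86). Of these neighbours, CycB3 and stg did not differ beyond their spread. At early NC14, CycB (1431 ± 154), CycA (797 ± 105), CycB3 (563 ± 33.97) and stg (507 ± 119) led in brat mutant, while CycB3 (525 ± 62.03), CycB (522 ± 159) and CycA (446 ± 46.03) led in HisRFP, with frs (343 ± 93.8) and fzy (317 ± 31.4) next, where stg was near the bottom at 15.9 ± 8.04. In the mutant, CycB3 and stg lay within their spreads of each other, as did CycB3, CycB and CycA in HisRFP, frs and CycA, and frs and fzy. At later NC14 frs was the most abundant member per kilobase in both, at 1301 ± 513 in brat mutant and 1244 ± 221 in HisRFP, and stg was at 44.3 ± 11 in brat mutant and 11.6 ± 12.4 in HisRFP.

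Other genes of the same machinery were taken as lists of 11 Cdk partners and inhibitors, 7 mitotic kinases and phosphatase genes, and 16 APC/C subunits and partners. At early NC14, brat mutant against HisRFP, 2 of 11 Cdk genes were higher and none lower, 2 of 7 mitotic genes were higher and none lower, and 3 of 15 tested APC/C genes were higher and 1 lower, where 21.6% of all genes differed. The median log2 fold change was 0.19, 0.37 and 0.002 in these lists, against -0.06 over all genes and 0.19 over the 10 members. gwl, the Greatwall kinase that protects mitotic phosphorylation, was higher (log2 fold change 2.24, 586 against 122 CPM, edgeR adjusted p = 1.07e-05), as was the mitotic kinase gene aurA (log2 fold change 1.002, 128 against 62.7 CPM, edgeR adjusted p = 0.00136). So was rux, an inhibitor of Cdk1, at a low level (log2 fold change 2.502, 4.24 against 0.732 CPM, edgeR adjusted p = 0.00275). The APC/C genes that were higher were APC7 (log2 fold change 2.18, 11.6 against 2.51 CPM, edgeR adjusted p = 0.00384), APC4 (log2 fold change 1.63, 59.6 against 19.1 CPM, edgeR adjusted p = 0.00792) and vih, the ubiquitin-conjugating enzyme of the complex (log2 fold change 1.59, 40.2 against 13.2 CPM, edgeR adjusted p = 0.0107).

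At later NC14, 1 of 11 Cdk genes was higher in the mutant than in the HisRFP embryos. It was CycJ, at a low level (log2 fold change 2.18, 1.78 against 0.387 CPM, edgeR adjusted p = 0.0289). Of the mitotic genes, 1 of 7 was higher (aurA, log2 fold change 1.33, 33.02 against 12.8 CPM, edgeR adjusted p = 0.00393). None of 14 APC/C genes passed, and 23.6% of all genes differed. At NC12, 1 of 7 mitotic genes was higher and 2 of 15 APC/C genes were lower, none by more than 1 on the log2 scale (11.4% of all genes differed). Between brat mutant and HisRFP, no list had a call in oocytes, at NC10 or, with all libraries, at NC13. Between brat mutant and brat het, 1 of 15 tested APC/C genes was higher in oocytes, where 13.0% of all genes differed. In brat het against HisRFP, the one list gene called was Rca1, a regulator of the APC/C, at NC12 (log2 fold change -1.11, 44.9 against 99.8 CPM, edgeR adjusted p = 0.00567). In the step from NC12 to early NC14, 3 of 11 Cdk genes rose and 5 fell in brat mutant (70.9% of all genes differed), and 2 rose and 5 fell in HisRFP (71.6% of all genes differed). Of 15 APC/C genes, 4 rose and 9 fell in brat mutant, and 4 rose and 10 fell in HisRFP. The step differed between genotypes for gwl (log2 difference 1.55 ± 0.21 SE, edgeR adjusted p = 2.71e-04), aurA (log2 difference 0.82 ± 0.18 SE, edgeR adjusted p = 0.0116) and rux (log2 difference 1.88 ± 0.48 SE, edgeR adjusted p = 0.0304). It differed for none of 15 APC/C genes.

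**Figure D5:**
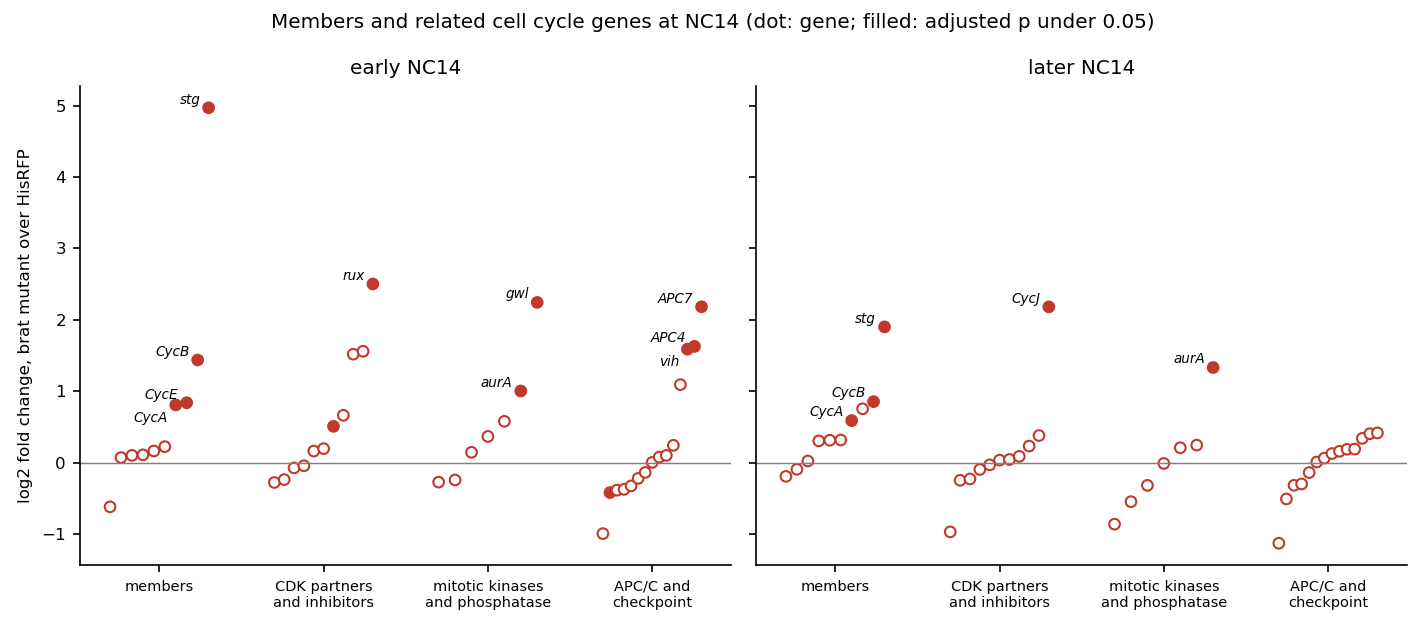
log2 fold change of each member and of each gene in the 3 pathway lists, brat mutant over HisRFP, at early and later NC14, with filled dots at an edgeR adjusted p under 0.05 and a line at 0. Of the list genes, gwl (2.24), rux (2.502), APC7 (2.18) and APC4 (1.63) lie highest at early NC14.

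Across all 62 libraries, which differ in stage, genotype and depth, the members' values were set against each other by Pearson's r of log2(CPM + 1). CycB3 and fzy were the most alike (r = 0.975), followed by stg and CycB (r = 0.922) and CycA and CycB (r = 0.921). frs was closest to fzy (r = 0.894) and CycB3 (r = 0.888), and also went with trbl (r = 0.853). The most opposed pair was CycB and trbl (r = -0.887). Among 6357 genes searched, the most alike were CG10237 for stg (r = 0.977), Usp1 for twe (r = 0.9797), pav for CycA (r = 0.9395), lace for CycB (r = 0.971), Amun for CycB3 (r = 0.973), CG10321 for CycE (r = 0.88), Psn for fzy (r = 0.969), CG1910 for fzr (r = 0.924), CG43725 for frs (r = 0.9903) and CG1806 for trbl (r = 0.966).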

How the data were processed

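RNA-seq libraries of 62 single oocytes or embryos were analysed, in 16 groups set by the maternal genotype and stage in the labels. The deposited table holds raw read counts per gene: the authors aligned reads to dm6 with HISAT2 2.1.0, discarded multi-mapping reads and counted with featureCounts 1.5.3 on UCSC gene models. Strand was not used in the counting. No column was left unmapped (0), and 17405 of 17510 gene rows matched a gene name. Library totals of 4000899 to 41029921 reads set the precision of low values, and reads from amplified cDNA are not independent molecules.

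Each comparison was fitted with edgeR 4.0.16 (quasi-likelihood test, R 4.3.3) on the groups it concerns, with TMM factors and genes of at least 50 reads summed over those groups. Filter and fit were thus made per comparison, where the study's methods describe a standard DESeq2 analysis with the filter over all samples. P values were adjusted by Benjamini-Hochberg over all genes tested, with a threshold of 0.05, and measure the spread between single oocytes or embryos, for which the labels do not say whether they share mothers. Of the comparisons, 24 were planned and 4 were added after the NC13 libraries had been seen. The members and lists were chosen with earlier results of these data known. Named genes are the 10 members, brat, list genes past the threshold with a log2 fold change beyond 1 (at most 3 per list and comparison), aurA in the step between genotypes (named after its value was seen), and the gene most alike each member. Alternatives were DESeq2 1.42.0, RLE factors, library totals, no filter beyond 1 read, a replicate block, leaving out each library, and, chosen after seeing the data, leaving out both NC13 libraries that stand apart.

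Replicate letters were checked for pairing. In HisRFP NC13 against NC12, all 3 same-letter pairs deviated together (correlation of deviations from the group means at least 0.122, mean 0.245). Its values with the letters as a block are therefore given with the result, although the labels do not say that letters pair embryos. In the other comparisons at least 1 pair fell under 0.1. Scripts were tested on counts simulated with set changes, in 50 genes per size of change, drawn from genes with enough expected reads in every library. A larger share of genes differed in the data, 23.6% at later NC14, so the recovered shares hold for the simulated setting only. For brat mutant against HisRFP at later NC14, 52% of log2 changes of 1 and 92% of those of 2 were recovered. At NC13 these shares were 10% and 56%. Differences that did not pass, above all small ones and those at NC13, may thus have been missed. Replicates differed by far more than counting noise, with a lowest chi-square of 12.4 per gene, so every library was counted as its own sample.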

Additional observations from a re-analysis of the deposited data

Results flagged for a closer look

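Among 140 group values of the members tested for a library far from the rest of its group, 11 stood out, and chance gives about 1 in 20 groups. For stg, brat het embryo D at later NC14 had 55.4 CPM, against 22.3 to 24.5 CPM in the other brat het embryos. HisRFP embryo B at early NC14 had 85.7 CPM, against 35.1 to 38.4 CPM in the other HisRFP embryos, and HisRFP embryo D at later NC14 had 92.0 CPM, against 12.0 to 20.8 CPM. For twe, brat-mutant embryo A at NC10 had 275 CPM, against 319.7 to 328 CPM in the others, and HisRFP oocyte B had 241 CPM, against 179.9 to 187 CPM. CycE was 424 CPM in HisRFP NC12 embryo C, against 544 to 564 CPM in the others, and this embryo also had the highest blastoderm gene sum of its group (1295 CPM, against 579 to 693 CPM). fzy was 581 CPM in brat het embryo A at later NC14, against 678 to 695 CPM. fzr was 9.62 CPM in brat-mutant embryo D at early NC14, against 15.7 to 16.9 CPM. frs was 0.562 CPM in brat-mutant NC10 embryo D, against 0.1496 to 0.194 CPM, and 1.495 CPM in brat het oocyte B, against 0 to 0.145 CPM, all levels of a few reads. trbl was 791 CPM in HisRFP embryo B at later NC14, against 634 to 651 CPM.

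The step of stg from early to later NC14 differed between brat mutant and HisRFP by -2.95 on the log2 scale (edgeR adjusted p = 0.0154), with 4 embryos per group. The step from NC12 to early NC14 differed for stg by 4.19 (edgeR adjusted p = 1.96e-06), for CycA by 0.64 (edgeR adjusted p = 0.00673) and for CycB by 1.04 (edgeR adjusted p = 0.0142), again with 4 embryos per group. The results for stg in these steps share the early NC14 libraries and are not independent.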

How the results depend on the processing

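No called log2 fold change of a member changed sign under the alternatives run. Counts of members in this section stand without the share of all genes called in the same fit. They show how calls held, not whether members were called more often than other genes. DESeq2 gave 23 calls that edgeR did not among 275 member values, and lost 0. Its counts of members called were 2 for brat mutant against HisRFP in oocytes, 4 at NC12, 1 at NC13 and 6 at later NC14. They were 2 for brat het against HisRFP in oocytes and 1 at later NC14, and 2 for brat mutant against brat het at later NC14. For the HisRFP steps they were 4 from oocyte to NC10, 6 from NC10 to NC12, 8 from NC12 to NC13 and 2 from NC13 to early NC14. RLE factors gave 1 member for brat mutant against HisRFP at NC12. Library totals gave 5 for brat mutant against HisRFP at later NC14 and 3 for HisRFP NC10 against oocyte. Without the filter there was 1 member for brat mutant against HisRFP at NC13, 1 for brat het against HisRFP at NC12 and 1 for HisRFP NC12 against NC10.

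With the replicate block, in which the labels give no ground for pairing samples by letter, the counts were 1 for brat mutant against HisRFP at NC12, 0 for brat het against HisRFP in oocytes, 1 at NC12 and 1 at later NC14, 3 for HisRFP NC13 against NC12 and 2 for early NC14 against NC13. It changed no other count by over 1.5 times. Without both NC13 libraries that stand apart, counts were 4 for brat mutant against HisRFP at NC13, 3 for HisRFP NC13 against NC12, 6 for early NC14 against NC13 and 1 for the difference in that step between genotypes.

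Leaving out each library in turn, the number of members called for brat mutant against HisRFP was 0 to 1 in oocytes, 0 to 1 at NC10, 1 to 2 at NC12, 0 to 1 at NC13, 3 to 4 at early NC14 and 1 to 4 at later NC14. For brat het against HisRFP it was 0 to 2 in oocytes, 1 at NC10, 1 to 2 at NC12 and 0 to 1 at later NC14. For brat mutant against brat het it was 0 in oocytes and at NC10, 1 at NC12 and 1 to 2 at later NC14. For the HisRFP steps it was 1 to 3 from oocyte to NC10, 1 to 4 to NC12, 0 to 7 to NC13, 0 to 6 to early NC14 and 6 to 7 to later NC14. For the differences between genotypes in these steps it was 0 in the first 3, 0 to 1 to early NC14 and 1 to 2 to later NC14. Skipping NC13, it was 10 in HisRFP, 8 to 9 in brat mutant and 3 for their difference, and 7 to 10 for brat mutant later against early NC14. The cause of these changes was not tested.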
